A study of Mus musculus with 48 samples.

Results

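The subject is a group of 10 genes that mark adipose progenitors and preadipocytes, out of the 55450 genes counted in each table. They were taken by symbol from a list whose rule used no measured value, although earlier results of these data were known when it was drawn up, and all 10 were found in both tables: Pdgfra, Pdgfrb, Dpp4, Pi16, Cd34, Ly6a, Dlk1, Zfp423, Thy1 and Icam1. Bulk RNA-seq was made from wild-type (WT) cells and from cells of Hmgn1-/-Hmgn2-/- double-knockout (DKO) mice, which lack the nucleosome-binding proteins HMGN1 and HMGN2. Preadipocytes came from the inguinal white adipose tissue (iWAT) of mice aged 8 to 12 weeks and were followed at days 0, 3, 6 and 9 of differentiation, and mouse embryonic fibroblasts (MEFs) were followed at days 0, 4, 8 and 12. Each cell type, genotype and day had 3 libraries, 48 in all. Induced cells of both genotypes, in preadipocytes for 4 days and in MEFs for 8 days, were given insulin, dexamethasone, IBMX, T3 and rosiglitazone, a PPARγ agonist, followed by insulin and T3 alone, and day 0 is the state before this medium. The labels give the strain as C57BL/6 for both genotypes, and the study names the DKO strain as B6.Cg-Hmgn2tm1.1Mbus Hmgn1tm1Mbus/Mmjax. MEFs were used within passage 3. The study calls its replicates biological, without saying whether the libraries of a group came from separate animals or from separate cultures, and p-values measure the spread between these libraries.

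White fat grows from stromal progenitors that lie along blood vessels and in the connective tissue between fat lobules. Current schemes place a DPP4+ PI16+ interstitial progenitor upstream of an ICAM1+ committed preadipocyte, and both carry the PDGF receptor PDGFRα and the antigens CD34, SCA-1 (encoded by Ly6a) and CD90 (encoded by Thy1). As such a cell becomes an adipocyte it loses most of these surface proteins and DLK1 (PREF-1), which holds differentiation back, whereas the zinc-finger protein ZFP423 supports the preadipocyte state and the induction of Pparg.

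Each library held 18962481 to 36006679 counts in genes. Levels are given as CPM, counts relative to library sizes that were scaled with TMM factors over all 48 libraries. Levels of different genes are compared only as RPKM, which divides by exon length as well. A gene was called where its fold change reached 1.5 and its p-value from edgeR's quasi-likelihood test, adjusted by Benjamini-Hochberg over all genes tested, lay under 0.05. Differences are log2 fold changes ± the standard error. For counts of 3 or fewer in each library of a group a ratio of summed counts stands in for the fitted fold change. Hmgn2 had at most 10 counts in any DKO library, against at least 744 in any WT library, while Hmgn1 transcripts were still counted, with log2 fold changes from -1.14 to -0.05, so that Hmgn1 is no check of the labels. Both cell types carried all 10 general fibroblast genes at every day above 3 counts. The summed CPM of 12 adipocyte markers lay between 50.3 and 87.1 in the preadipocyte libraries of day 0 and between 25034 and 39024 in those of day 9.

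4 MEF libraries lay nearer to another day than to their own group. By the root mean square difference of log2 CPM, the library labelled WT day 4 replicate 1 was at 0.508 from the other libraries of its group and at 0.264 from those of day 8, and the library labelled DKO day 4 replicate 3 was at 0.401 and 0.273. The library labelled WT day 8 replicate 2 was at 0.579 from its own group and at 0.302 from day 4, and the library labelled DKO day 8 replicate 3 was at 0.602 and 0.303. No other library of either cell type was nearer to another day, as the plot of these distances shows. The main comparisons and the correlations that use MEF day 4 or day 8 are given below with and without these 4 libraries. The single fit of DKO against WT over all days holds them too and was made only with them.

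**Figure D1:**
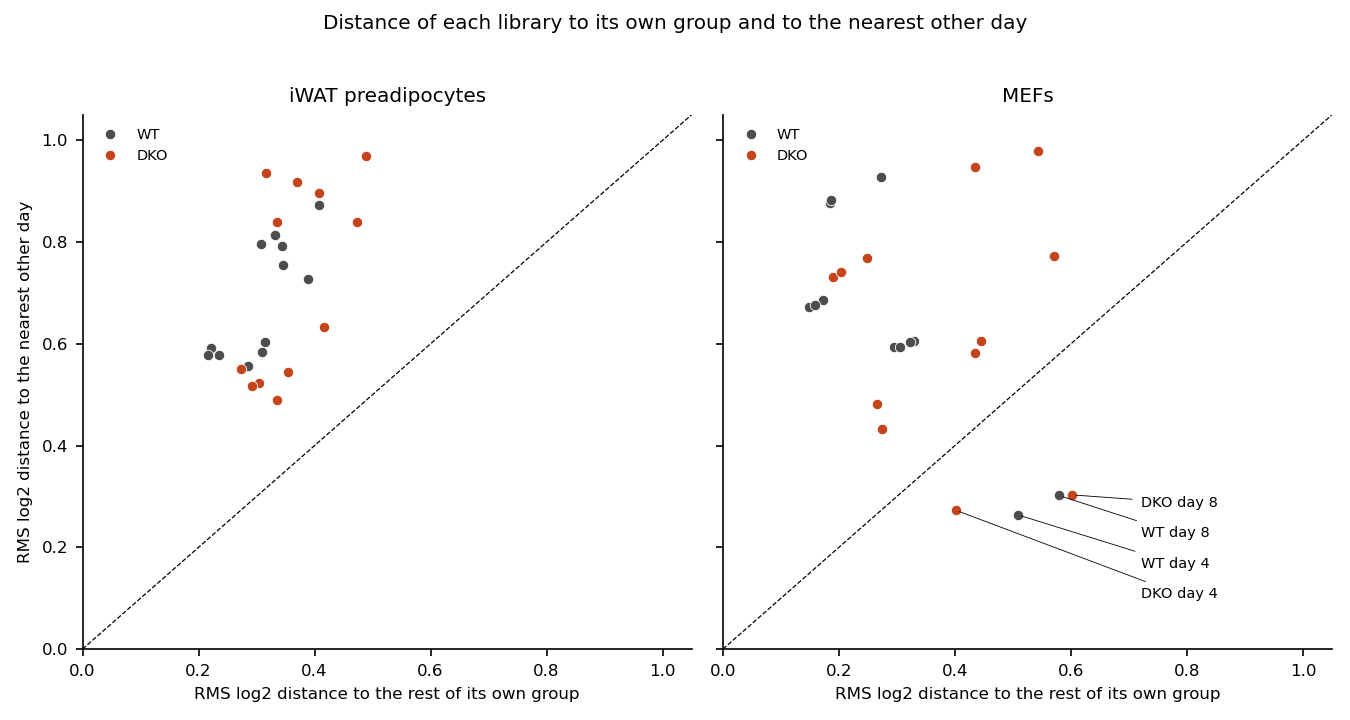
Each point is a library; the x axis is its root mean square log2 CPM distance to the rest of its own group and the y axis the same distance to the nearest other day of the same genotype, for iWAT preadipocytes (left) and MEFs (right), WT in grey and DKO in red. The dashed line marks equal distances, and 4 MEF libraries lie under it, at 0.401 to 0.602 from their own group and 0.264 to 0.303 from the other day.

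The 10 genes lie on 9 chromosomes, and none of them shares a chromosome with Hmgn1 or Hmgn2. In mm10 coordinates with GENCODE M21 annotation, Pi16 occupies chr17:29317680-29330593 (+), Icam1 chr9:21015985-21028817 (+), Dlk1 chr12:109452823-109463336 (+) and Zfp423 chr8:87661810-87959595 (-), and all 10 are protein-coding. RefSeq promoter entries of the same build (GRCm38.p6) were matched for 7 of the 10 genes, with 8 entries, and not for Pdgfrb, Ly6a and Thy1. The 250 bases before the RefSeq start are printed here for Pi16 and Icam1, which mark the interstitial and the committed step of the progenitor scheme and were both called lower in DKO MEFs at day 12, and for Dlk1 and Zfp423, an inhibitor and a regulator of differentiation. Capitals mark matches, on either strand, to the letters of an AP-1 site, a TATA box, a GC box or a C/EBP site, and no match overlapped another.
Pi16, chr17:29318632-29318881 (+): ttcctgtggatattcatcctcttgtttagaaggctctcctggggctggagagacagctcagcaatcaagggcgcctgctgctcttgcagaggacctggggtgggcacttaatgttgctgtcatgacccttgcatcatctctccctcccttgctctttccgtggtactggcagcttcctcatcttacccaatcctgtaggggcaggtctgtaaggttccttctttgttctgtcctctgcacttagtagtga
Icam1, chr9:21015690-21015939 (+): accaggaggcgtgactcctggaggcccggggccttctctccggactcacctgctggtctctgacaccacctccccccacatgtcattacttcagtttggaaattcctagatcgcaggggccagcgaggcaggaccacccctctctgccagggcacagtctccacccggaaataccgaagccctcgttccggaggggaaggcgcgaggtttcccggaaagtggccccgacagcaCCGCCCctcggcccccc
Dlk1, chr12:109452573-109452822 (+): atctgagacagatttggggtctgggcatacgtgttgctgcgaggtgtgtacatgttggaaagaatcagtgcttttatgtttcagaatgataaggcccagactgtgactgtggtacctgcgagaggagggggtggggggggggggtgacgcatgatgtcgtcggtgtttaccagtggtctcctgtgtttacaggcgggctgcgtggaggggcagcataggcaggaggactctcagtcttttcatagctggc
Zfp423, chr8:87959596-87959845 (-): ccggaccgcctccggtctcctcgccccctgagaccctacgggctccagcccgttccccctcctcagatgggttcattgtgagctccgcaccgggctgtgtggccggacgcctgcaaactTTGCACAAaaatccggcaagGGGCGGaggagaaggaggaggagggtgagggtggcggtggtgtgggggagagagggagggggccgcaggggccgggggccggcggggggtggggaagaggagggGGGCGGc

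The AP-1 letters searched were TGANTCA, the motif of FRA2 and JUN. They were in none of the 8 windows of these genes, against 6.75% of all 32851 promoter windows of that length. The GC box was searched as GGGCGG. It stood in the first of the 2 Zfp423 windows, the one printed, at 111 to 106 and at 7 to 2 bases before the start. The second Zfp423 window held it at 62 to 57 bases and the Icam1 window at 17 to 12 bases, beside 32.7% of all windows. For C/EBP the letters were TTGCNNAA, held by 9.56% of windows. They occurred in the first Zfp423 window at 131 to 124 bases and in Pdgfra at 118 to 111 bases before the start. The TATA box, TATAAA, was held by 12.4% of windows and here by Dpp4 only, at 227 to 222 bases before the start. The first and second Zfp423 windows and the Icam1 window had GC contents of 71.6%, 64.8% and 65.2%, above the upper quartile of all windows (61.2%). Pi16 and Dlk1, at 52.4% and 54.8%, lay near the median of 52.4%. A match to letters is a description of the sequence, and no binding was measured in these files.

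Before induction, WT preadipocytes carried SCA-1, CD90 and PDGF receptor transcripts at high levels and the interstitial markers at very low ones. By RPKM, Ly6a stood at 362 ± 33.6 (SD, n = 3) and Thy1 at 328 ± 5.61, followed by Pdgfrb at 111 ± 20, Pdgfra at 48.4 ± 14.9 and Icam1 at 16.4 ± 4.58, and no gene of these overlapped its neighbour in the order. Below them came Cd34 (4.27 ± 2.52), Dlk1 (0.731 ± 0.545), Pi16 (0.416 ± 0.137), Dpp4 (0.325 ± 0.129) and Zfp423 (0.166 ± 0.0285), and each of these overlapped the next. In WT MEFs the order differed in the middle: Ly6a (207 ± 6.32) was followed by Dlk1 (95.3 ± 3.80) and Thy1 (95.2 ± 10.4), which overlapped, then by Pdgfrb (61.4 ± 3.36), Pdgfra (50.1 ± 5.28), Cd34 (33.2 ± 2.46) and Icam1 (17.6 ± 1.26). Zfp423 (1.25 ± 0.166) and Dpp4 (1.23 ± 0.381), which overlapped, and Pi16 (0.612 ± 0.038) were again the lowest.

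Adult preadipocytes and embryonic fibroblasts differed most in Dlk1, the transcript of the imprinted inhibitor of adipogenesis. At day 0, Dlk1 was at 2.16, 2.56 and 7.68 CPM in the WT preadipocyte libraries and at 520.4, 563 and 534 CPM in the WT MEF libraries, a log2 fold change of -7.13 ± 0.50 (adjusted p = 0.000105). Cd34 (-3.05), Zfp423 (-2.99) and Dpp4 (-2.0) were lower in WT preadipocytes as well, and Thy1 (1.70), Pdgfrb (0.76) and Ly6a (0.72) were higher, so that 7 of the 10 genes were called where 38.6% of 15726 genes were. In DKO cells 3 of 10 were called, against 28.9% of 15893 genes: Dlk1 (-4.30), Dpp4 (-3.07) and Thy1 (1.31). Only Thy1 was called under every alternative of the DKO comparison. The cell type and the table that holds it cannot be told apart in this comparison. DKO preadipocyte cultures spread widely at day 0: Dlk1 was at 1.12, 8.01 and 33.2 CPM and Cd34 at 5.49, 35.9 and 76 CPM in replicates 1, 2 and 3. Leaving out DKO preadipocyte replicate 2, DKO MEF replicate 1 or DKO MEF replicate 3 ended the call of Dlk1, and leaving out DKO preadipocyte replicate 1 or 3 ended that of Dpp4.

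Over 9 days of differentiation, WT preadipocytes lost Thy1, Icam1, Pdgfrb and Dpp4 transcripts and gained Zfp423. Thy1 fell from 964, 994 and 991 CPM at day 0 to 108, 89 and 96.3 CPM at day 9 (-3.33 ± 0.10, adjusted p = 6.87e-10), with day 3 and day 6 in between, as the plot of the markers in preadipocytes shows. Zfp423 rose from 0.836, 1.12 and 0.843 CPM to 13.7, 12 and 13.8 CPM (3.81 ± 0.26, adjusted p = 1.07e-07), with its day 6 libraries already at 12.2 to 14.2 CPM. The transcript of the preadipocyte regulator was thus highest late in the course and that of CD90 before induction. Icam1 (-2.10), Pdgfrb (-2.07) and Dpp4 (-1.42) fell and Ly6a (0.75) rose. These 6 calls of 10 stand beside 52.7% of 16188 genes called over the same interval. Pdgfra (-0.43), Cd34 (-0.67), Dlk1 (1.04) and Pi16 (0.14) were not called at day 9. The call of Dpp4 was lost without WT day 0 replicate 1 or 3 or WT day 9 replicate 1 or 2. In bulk samples fewer cells of a type and less RNA per cell cannot be told apart.

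**Figure D2:**
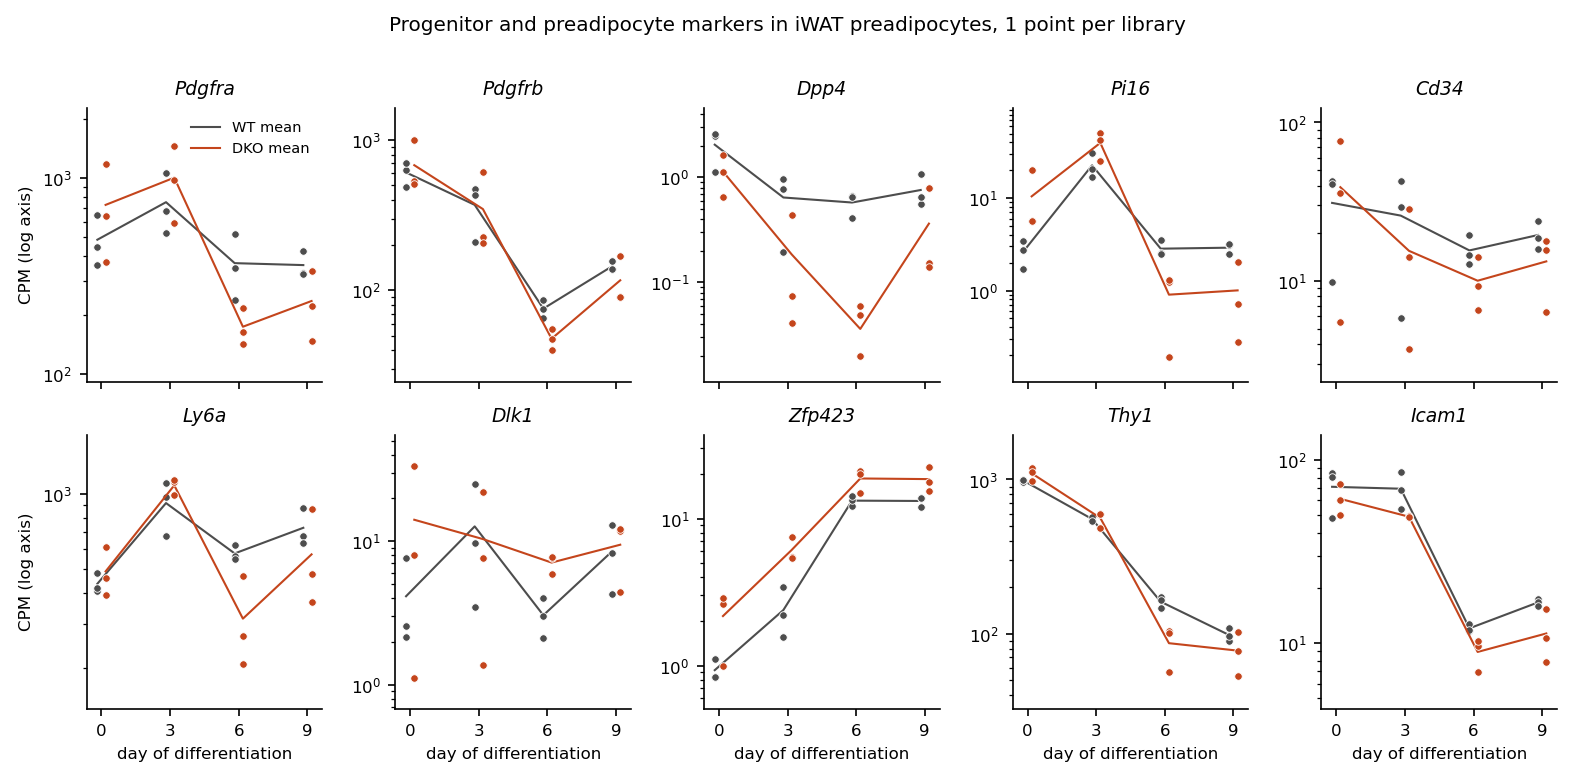
Level of each marker in iWAT preadipocytes in CPM (log axis) by day of differentiation; points are libraries, lines join the means of 3 libraries, WT in grey and DKO in red, and a library with 0 counts is drawn at 0.02 CPM. Thy1, Icam1 and Pdgfrb fall and Zfp423 rises in both genotypes, Pi16 and Ly6a peak at day 3, and at day 6 the DKO points of Dpp4, Pi16, Pdgfra, Pdgfrb, Ly6a, Thy1 and Icam1 lie under all WT points.

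The interstitial marker Pi16, which encodes a peptidase inhibitor, had its highest mean at day 3, as did Ly6a and Pdgfra. For Pdgfra the change from day 0 to day 3 was not called by edgeR in WT (0.58 ± 0.33, adjusted p = 0.195) or DKO cells (0.41 ± 0.45, adjusted p = 0.491). Pi16 rose in WT cells from 1.72, 3.44 and 2.78 CPM at day 0 to 20.7, 16.8 and 30.5 CPM at day 3 (3.04 ± 0.28, adjusted p = 1.23e-05) and stood at 3.48, 2.52 and 2.5 CPM at day 6. Ly6a was at 1108, 676 and 970.4 CPM at day 3 against 406, 482 and 419 CPM at day 0 (1.02 ± 0.17). No day 3 library of either gene overlapped a day 0 library of WT cells. Dpp4, the partner of Pi16 as a marker, fell instead, from 2.46, 1.12 and 2.58 CPM to 0.194, 0.96 and 0.778 CPM (-1.71 ± 0.48, adjusted p = 0.0133). With Zfp423 (1.28), Thy1 (-0.89) and Pdgfrb (-0.77), 6 of 10 genes were called by day 3 in WT cells, against 24.7% of genes. Leaving out WT day 0 replicate 1 or 2 or WT day 3 replicate 3 ended the call of Pdgfrb, and a fit of only these 2 days left 4 calls, without Pdgfrb and Dpp4.

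DKO preadipocytes changed in the same directions for the called genes of day 3. Zfp423 (1.42), Pi16 (1.88) and Ly6a (1.10) rose and Thy1 (-1.01) and Dpp4 (-2.66) fell, 5 calls of 10 against 27.0% of 16138 genes. Same-numbered DKO libraries of days 0 and 3 deviated together, with correlations of 0.613, 0.462 and 0.568. With the replicate number as a block in an edgeR fit of these 6 libraries, Pdgfrb (-1.17, adjusted p = 0.002) and Cd34 (-1.26, adjusted p = 0.0038) were called as well. Without the block the count ranged from 2 to 5 as each library was left out, with Thy1 and Zfp423 called each time, and it was lowest without DKO day 3 replicate 3. By day 9, 6 of 10 genes were called in DKO cells, against 55.6% of genes. Thy1 (-3.81), Pi16 (-3.35), Pdgfrb (-2.53), Icam1 (-2.43) and Pdgfra (-1.62) fell and Zfp423 (3.07) rose. The change of Pi16 over these 9 days differed between DKO and WT cells by -3.49 ± 0.84 on the log2 scale, which did not pass edgeR's test of the difference (adjusted p = 0.058). None of the 10 genes passed it, against 0.711% of 16877 genes, with 1 at an unadjusted p under 0.05 and 1 by DESeq2 (Pi16).

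Loss of HMGN1 and HMGN2 left the 10 markers without a call before and early in induction of the preadipocytes. At day 0, 0 of 10 were called by edgeR, against 0.218% of 15123 genes, with 2 at an unadjusted p under 0.05, and 1 by DESeq2 (Pi16). Pi16 was the only marker whose DKO libraries (5.7, 20 and 5.64 CPM) lay wholly on 1 side of the WT libraries (1.72, 3.44 and 2.78 CPM), as did 14.5% of all genes, and its log2 fold change was 1.97 ± 0.60 (adjusted p = 0.497). At day 3, 0 of 10 were called, against 0.337% of 15119 genes, with 3 at an unadjusted p under 0.05 and 1 by DESeq2 (Zfp423). Zfp423 was at 7.44, 5.5 and 5.39 CPM in DKO and 3.4, 2.21 and 1.56 CPM in WT cells (1.33 ± 0.32, adjusted p = 0.169). The DKO libraries lay above all WT libraries for Zfp423 and below them for Icam1 (-0.54), 2 of 10 where 18.9% of all genes did not overlap.

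At day 6 Pdgfrb and Thy1 were lower and Dlk1 was higher in DKO than in WT preadipocytes. The DKO libraries did not overlap the WT libraries in 9 of 10 genes, 7 below and 2 above, where 42.8% of all genes did not overlap, and the median log2 fold change of the 9 genes tested was -0.69 beside -0.01 for all genes. 3 of the 9 were called, against 11.6% of 14694 genes. The PDGF receptor β transcript Pdgfrb, which also marks the cells around vessels, was at 47.8, 55.1 and 40.4 CPM in DKO and 86.2, 65.5 and 75.3 CPM in WT libraries (-0.69 ± 0.13, adjusted p = 0.0117). Thy1 was at 103, 101 and 56.1 CPM in DKO and 173, 146 and 165 CPM in WT libraries (-0.91 ± 0.23, adjusted p = 0.0337). Dlk1, the inhibitor of adipogenesis, moved the other way, with 7.64, 5.93 and 7.71 CPM in DKO and 4.02, 3.02 and 2.1 CPM in WT libraries (1.20 ± 0.24, adjusted p = 0.0133).

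The other markers of day 6 did not reach a call. Zfp423 passed the adjusted p but not the fold change, at 15, 21.1 and 20.1 CPM in DKO and 12.2, 13.3 and 14.2 CPM in WT libraries (0.48 ± 0.14, adjusted p = 0.0409). Pi16 was at 1.22, 1.29 and 0.189 CPM against 3.48, 2.52 and 2.5 CPM (-1.69 ± 0.51, adjusted p = 0.0524). Pdgfra (-1.09, adjusted p = 0.0501) and Ly6a (-0.89, adjusted p = 0.0629) lay just past the threshold as well. Icam1 (-0.45, adjusted p = 0.0714) missed the fold change too and was called under none of 13 alternatives, and Cd34 overlapped between genotypes (-0.65, adjusted p = 0.155). Dpp4 was too low to be tested: the 3 DKO libraries held 1, 1 and 0 counts against 10, 16 and 15 in WT cells, a ratio of 0.0594 with an exact 95% interval of 0.00696 to 0.229 that covers counting error only. No marker kept its call under every left-out library: Dlk1 lost it without DKO replicate 3, Pdgfrb without WT replicate 1 or 3, and Thy1 without WT replicate 1, 2 or 3. Called markers numbered 1 if WT replicate 3 was left out, with 4.82% of all genes called, 5 if DKO replicate 2 was (1649 genes) and 7 if DKO replicate 1 was (12.6%). DESeq2 (12.5%), scaling by library size (11.9%) and limma-voom (12.1%) each called 6, adding Pi16, Pdgfra and Ly6a. A single fit over all days (9.09%) lost Pdgfrb and Dlk1 and called Thy1, Dpp4 and Ly6a.

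**Figure D3:**
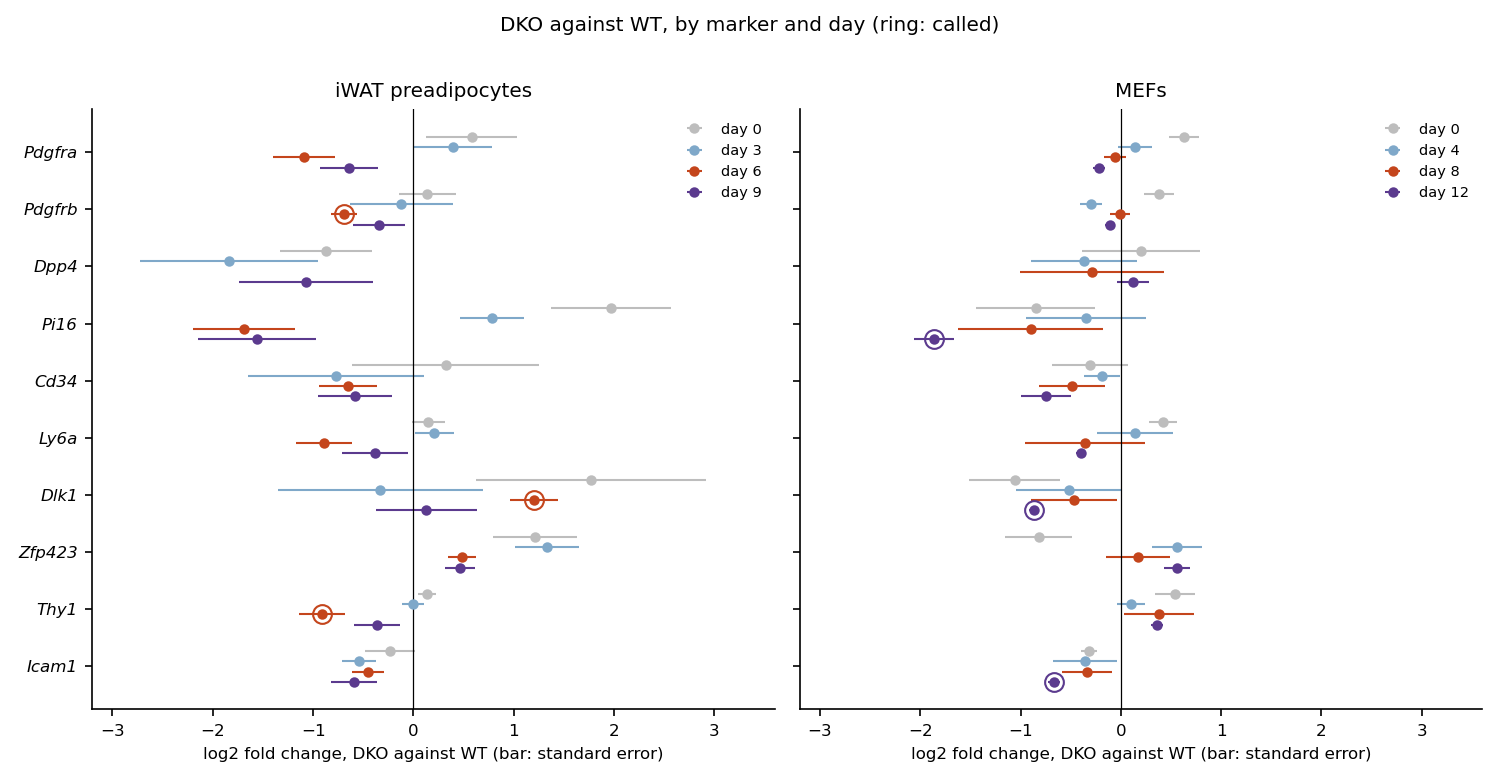
Log2 fold change of DKO against WT (x axis) for each marker (y axis) by day, in iWAT preadipocytes (left) and MEFs (right); bars are standard errors of the edgeR fit and rings mark called genes. In preadipocytes at day 6, Pdgfrb (-0.69), Thy1 (-0.91) and Dlk1 (1.20) are ringed, in MEFs at day 12, Pi16 (-1.86), Dlk1 (-0.87) and Icam1 (-0.67), and Dpp4 has no point at day 6.

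For Pi16 and Thy1 the genotype difference itself changed between day 0 and day 6 of the preadipocytes. Pi16 went from 1.97 to -1.69, a difference of -3.63 ± 0.85 (adjusted p = 0.0235, edgeR interaction over 24 libraries). Thy1 went from 0.14 to -0.91, a difference of -1.02 ± 0.28 (adjusted p = 0.0431). These are 2 of 10 genes where 5.02% of 16877 genes passed. Leaving out WT day 0 replicate 1, WT day 6 replicate 1 or 3, DKO day 0 replicate 2 or DKO day 6 replicate 3 left 0. Pi16 kept its call in 11 and Thy1 in 6 of 16 alternatives. Pi16 ranged over these and the other alternatives from an adjusted p of 0.000723 to 0.0731 and Thy1 from 0.00799 to 0.101.

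At day 9, 0 of 10 genes were called by edgeR, against 1.24% of 14700 genes. There were 3 at an unadjusted p under 0.05 and 0 by DESeq2. Pi16 was at 0.718, 2.01 and 0.279 CPM in DKO and 2.46, 3.1 and 3.16 CPM in WT libraries (-1.56 ± 0.59, adjusted p = 0.152), and Icam1 at 10.7, 15.3 and 7.86 CPM and 17.3, 16.7 and 16 CPM (-0.59 ± 0.23, adjusted p = 0.16). Those 2 genes lay below and Zfp423 (0.46) above the WT libraries without overlap, as 34.2% of all genes did on 1 side or the other. DKO replicate 2 stood apart from the other DKO cultures of that day, with the highest DKO level in 8 of 10 markers. It had summed fibroblast genes of 25425 CPM against 10670 and 13590.0 CPM. Without that library 6 of 10 were called lower in DKO cells (Pi16, Pdgfra, Pdgfrb, Dpp4, Icam1 and Ly6a), with 9.72% of all genes called.

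Other gene groups moved beside the markers at day 6, read against the same 11.6% of all genes called. Of 10 general fibroblast genes, 6 were lower and 0 higher in DKO preadipocytes, with the collagen genes Col1a1 (-1.63) and Col1a2 (-1.51) leading. Their summed level was 8063 to 11253 CPM against 17670.4 to 21543 CPM in WT cells. Of 11 adipocyte markers tested, 4 were higher, among them Dgat2 (1.31), an enzyme of triglyceride synthesis, and Slc2a4 (1.01), the insulin-responsive glucose transporter. Of 8 brown and beige markers 6 were higher, with the uncoupling protein gene Ucp1 at 2.38 and Cox7a1 at 1.20. Proliferation genes were lower in 8 of 10, led by Top2a (-1.15) and Ccna2 (-1.09). All 10 macrophage and leukocyte genes rose between day 0 and day 9 in cells of both genotypes, and the list summed to 2753 to 6597 CPM in DKO and 8191 to 13391 CPM in WT libraries at day 6. Of its genes 1 was called (Lyz2, -1.45). The leukocyte antigen gene Ptprc was at 25.1, 6.93 and 18.3 CPM in DKO and 27.3, 39.7 and 37.9 CPM in WT libraries. The part of macrophages, fibroblast content and proliferation in the marker differences was not tested.

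**Figure D4:**
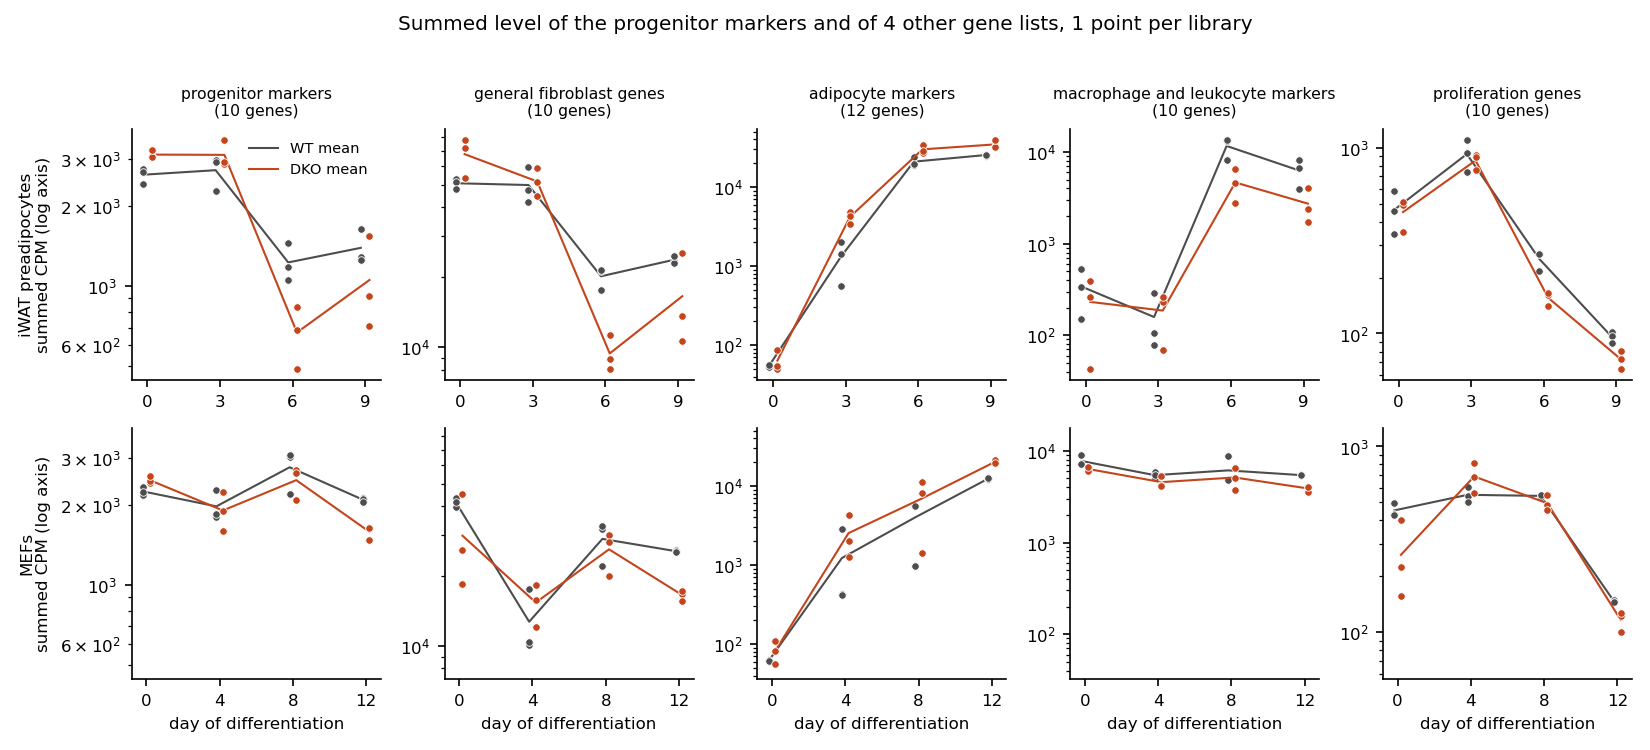
Summed CPM (log axis) of the 10 progenitor markers and of 4 other lists by day of differentiation, in iWAT preadipocytes (top) and MEFs (bottom); points are libraries, lines join means, WT in grey and DKO in red. At day 6 of the preadipocytes the markers, fibroblast genes, macrophage genes and proliferation genes lie lower in every DKO library than in every WT library and the adipocyte markers higher.

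Genes that accompany the markers were counted by progenitor class at day 6, when 11.6% of all genes were called in either direction. The classes were not tested against each other. Of 12 tested genes of DPP4+ interstitial progenitors, 1 was higher (Limch1, 0.93) and 3 lower, with Cd248 (-1.39), which encodes endosialin, and Anxa3 (-1.30) the clearest. Of 12 genes of committed preadipocytes, 1 was lower (Col4a2, -0.64) and 0 higher. In WT preadipocytes this committed list summed to 5479 to 6898 CPM at day 0 and to 30497 to 33408 CPM at day 6. The list thus rose with differentiation. Of 8 genes of the CD142+ cells that regulate adipogenesis, 2 were lower (Gdf10, -0.60, and Igfbp7, -0.74). None of 10 partners and regulators of ZFP423 and none of 3 PDGF ligands was called, and of 9 other inhibitors of adipogenesis, 2 were higher: Ddit3 (1.13), which encodes CHOP, and Wnt5a (0.77). Medians of these lists were -0.45 for interstitial genes, 0.06 for committed genes and -0.18 for CD142+ genes, beside -0.01 for all genes tested. Among lists of other cell types, Schwann cell genes were higher in 1 of 6 (S100b) and lower in 3, mural genes higher in 1 of 6 (Cspg4, 1.46), and endothelial genes (5 tested) and mesothelial genes (1 tested) were not called, while all 6 epithelial genes were at or under 3 counts in each library.

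In WT MEFs 5 of the 10 markers fell and 1 rose by day 4. Dpp4 went from 9.19, 4.96 and 9.07 CPM at day 0 to 1.2, 0.639 and 0.596 CPM at day 4 (-3.32 ± 0.51, adjusted p = 0.000285) and 4.77, 4.84 and 4.93 CPM at day 12, and Ly6a from 258, 245 and 245 CPM to 114, 55.9 and 53.5 CPM (-1.84) and 289.7, 293 and 293 CPM. Both genes were higher in the library labelled WT day 4 replicate 1 than in the other 2. Pi16 (-2.56), Cd34 (-1.65) and Pdgfrb (-1.26) fell too and Thy1 rose (0.70), 6 of 10 against 33.2% of 16359 genes. The call of Thy1 was lost without WT day 0 replicate 1 or 3 or WT day 4 replicate 2 or 3. Without the WT libraries labelled day 4 replicate 1 and day 8 replicate 2, Zfp423 (-0.64) was called as well. By day 12, Cd34 (-1.47), the sialomucin of progenitor and endothelial cells, Thy1 (-1.38) and Icam1 (-0.71) were lower than at day 0 and Zfp423 (0.78) higher, 4 of 10 against 26.3% of genes. Icam1 lost its call without WT day 0 replicate 2. Without the 2 WT libraries nearer to another day, Dpp4 (-0.68) was called as well.

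**Figure D5:**
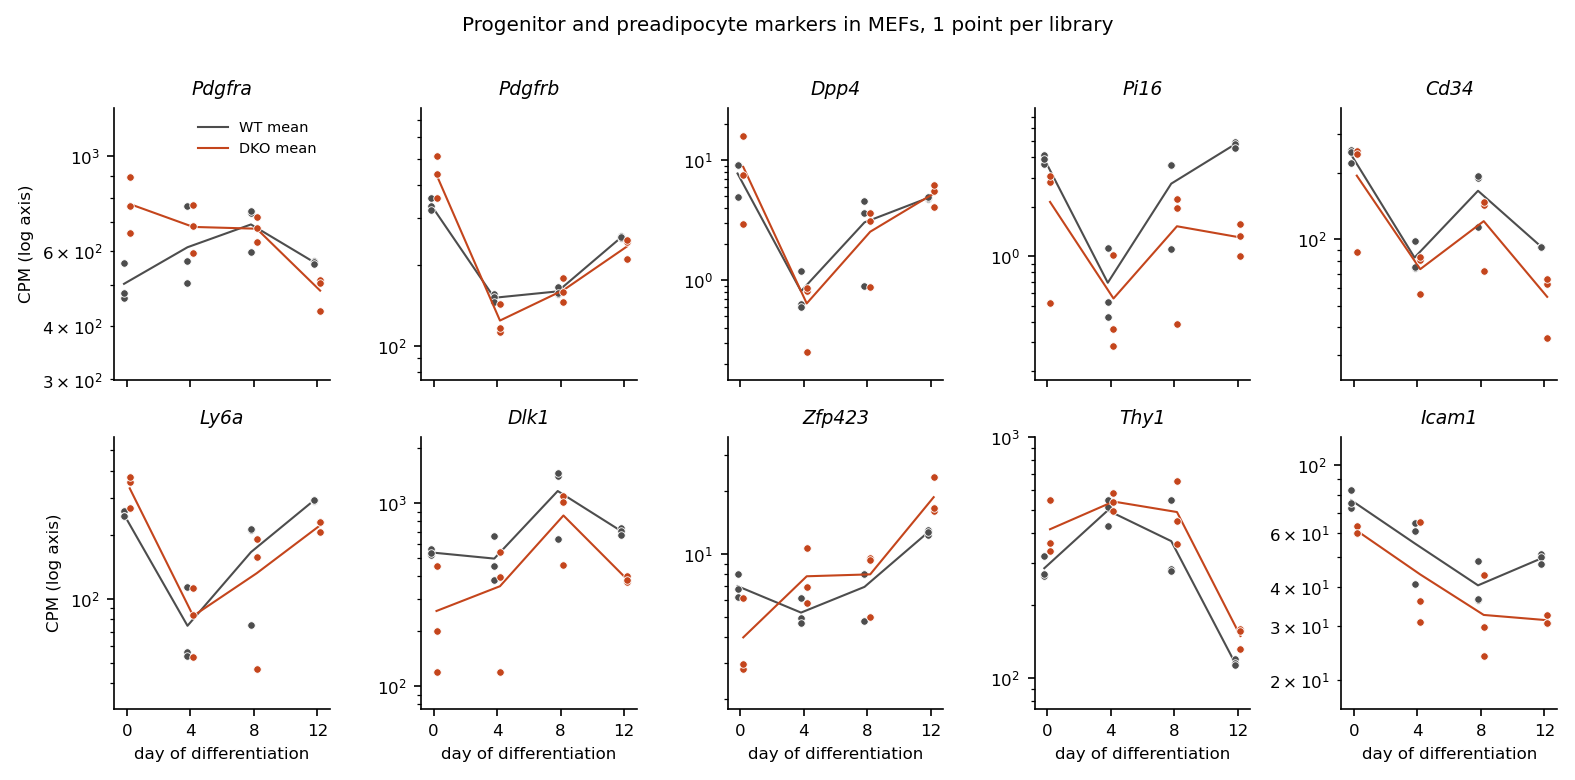
Level of each marker in MEFs in CPM (log axis) by day of differentiation; points are libraries and lines join the means of 3 libraries, WT in grey and DKO in red. Days 4 and 8 include the 4 libraries nearer to another day, and at day 12 the DKO points of Pi16, Dlk1 and Icam1 lie under all WT points.

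DKO MEFs lost Dpp4 (-3.90), Ly6a (-2.11), Pdgfrb (-1.92) and Cd34 (-1.53) by day 4, 4 of 10 against 26.1% of 16231 genes. Cd34 lost its call without DKO day 0 replicate 1 or 3 or DKO day 4 replicate 2. Without the DKO libraries labelled day 4 replicate 3 and day 8 replicate 3, Pi16 (-2.83) was called as well. By day 12, 6 of 10 were called, against 25.6% of genes: Zfp423 rose, from 6.17, 2.8 and 2.95 CPM to 16.2, 23.5 and 16.6 CPM (2.28 ± 0.37, adjusted p = 0.00091), and Cd34 (-1.79), Thy1 (-1.44), Icam1 (-0.94), Pdgfrb (-0.86) and Pdgfra (-0.64) fell. Pdgfra lost its call without DKO day 0 replicate 3 and Icam1 without DKO day 12 replicate 1 or 3. All 6 genes kept their calls without the 2 DKO libraries nearer to another day. The day 12 change differed between genotypes for 0 of 10 genes by edgeR's interaction test, against 0.0353% of 16996 genes, with 3 at an unadjusted p under 0.05 and 1 by DESeq2 (Pdgfra). Without the 4 libraries that lay nearer to another day it differed for Zfp423 (1.41), Pdgfra (-0.83) and Ly6a (-0.79), with 2.04% of all genes called.

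Before and early in the course of the MEFs, DKO and WT cells were not separated by a call in any marker. At day 0, 0 of 10 were called by edgeR, against 0.102% of 15671 genes, with 6 at an unadjusted p under 0.05 and 1 by DESeq2 (Pdgfra). 7 of 10 did not overlap, 3 above and 4 below WT, where 18.4% of all genes did not. Pdgfra, the defining receptor of fibroblastic progenitors, was at 659, 765 and 894 CPM in DKO and 466, 563 and 478 CPM in WT cells (0.63 ± 0.15, adjusted p = 0.392), and Dlk1 at 454, 119 and 201 CPM and 520.4, 563 and 534 CPM (-1.06 ± 0.45, adjusted p = 0.533). DKO replicate 1 lay nearest to WT in both genes, and without it Pdgfra was called higher and Dlk1 and Zfp423 lower, with 3.28% of all genes called.

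At day 4, 0 of 10 were called, against 0.0905% of 15475 genes. There was 1 at an unadjusted p under 0.05 (Pdgfrb, -0.30) and 0 by DESeq2, and that gene was the only one without overlap, beside 11.6% of all genes. At day 8, 0 of 10 were called, against 0.0595% of 15117 genes. There were 0 at an unadjusted p under 0.05 and 0 by DESeq2, and none was without overlap, beside 15.5% of all genes. Both counts were still 0 without the 4 libraries nearer to another day, when 174 genes were called at day 4 and 609 at day 8. The DKO effect at day 8 did not differ from that at day 0 for any of the 10 genes by edgeR's interaction test, with 3 at an unadjusted p under 0.05, and 0.0% of 16996 genes passed it, with 1457 at an unadjusted p under 0.05. Without the 4 libraries 6 genes passed it, and 0 of the 10.

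At day 12, DKO MEFs carried less Dlk1, Icam1 and Pi16 than WT MEFs. Dlk1 was at 373, 402 and 379 CPM in DKO and 730.4, 709.9 and 674 CPM in WT libraries (-0.87 ± 0.05, adjusted p = 1.6e-09). Icam1, the adhesion molecule that marks committed preadipocytes, was at 30.7, 32.4 and 30.6 CPM and 51.3, 50 and 47.8 CPM (-0.67 ± 0.06, adjusted p = 1.91e-07). Pi16 was at 1.57, 1 and 1.34 CPM and 4.95, 4.84 and 4.57 CPM (-1.86 ± 0.20, adjusted p = 3.08e-06). In each of the 3 genes every DKO library lay well below every WT library. These 3 calls of 10 stand beside 7.98% of 15319 genes called, and 9 of 10 genes did not overlap, 7 below and 2 above, where 46.8% of all genes did not. Ly6a (-0.40), Pdgfra (-0.22), Thy1 (0.36) and Zfp423 (0.56) passed the adjusted p but not the fold change, and Cd34 (-0.75, adjusted p = 0.0973) and Pdgfrb (-0.11) did not pass. DESeq2 and limma-voom called Cd34 as well as Dlk1, Icam1 and Pi16. Dpp4 overlapped, at 5.56, 4.09 and 6.16 CPM and 4.77, 4.84 and 4.93 CPM.

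The WT libraries of MEF day 12 were very alike, with Ly6a at 289.7, 293 and 293 CPM and a chi-square of their counts of 2.18 to 3.58 per degree of freedom, where other groups of libraries reached 168, so that they differed by more than sampling noise but by little. All 3 calls held as each library was left out, and all 3 were lost when the spread was estimated over all days (adjusted p = 0.374 for Dlk1, 0.142 for Icam1 and 0.111 for Pi16). That spread includes the MEF libraries nearer to another day, and the fit was not repeated without them. Dlk1 was higher in DKO preadipocytes at day 6 and lower in DKO MEFs at day 12, at days and in tables that were not tested against each other.

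The other lists at MEF day 12 are read against 7.98% of all genes called in either direction. Genes of DPP4+ interstitial progenitors were higher in 1 of 15 (Smpd3, 0.61) and lower in 5, with Uchl1 (-1.07) and the complement regulator Cd55 (-0.61) leading. Committed preadipocyte genes were higher in 3 of 12, including Fabp4 (0.66), the fatty acid binding protein of adipocytes, and Cd36 (0.61), and lower in 1 (Sparcl1, -0.80). Fabp4 is in the adipocyte list as well. In WT MEFs the committed list summed to 2905 to 3822 CPM at day 0 and to 21560 to 21921 CPM at day 12, so it rose with differentiation. CD142+ genes were higher in 1 of 8 (Fmo2, 0.64) and lower in 3 (Gdf10, -1.31, and Clec11a, -0.63, among them), and 1 of 4 PDGF ligands was lower (Pdgfb, -0.98), as was 1 of 11 partners of ZFP423 (Ebf2, -0.67). Of 11 other inhibitors, Dlk2 (1.39) was higher and Wnt10b (-0.95) lower. Adipocyte markers were higher in 10 of 12 (Adipoq, 0.78), brown and beige markers higher in 4 of 8 (Elovl3, 1.27) and lower in 2 (Dio2, -1.14, and Prdm16, -0.61). Fibroblast genes were lower in 5 of 10 (Col3a1, -1.0). Proliferation genes were lower in 3 of 10, endothelial genes in 2 of 5, mural genes in 3 of 7 with 1 higher, and Schwann cell genes in 4 of 5 with 1 higher. Epithelial genes were higher in 3 of 4 at summed levels of 6.37 to 9.33 CPM in DKO and 3.35 to 4.11 CPM in WT libraries, and mesothelial genes in 1 of 6. The macrophage and leukocyte list had 1 of 10 lower (Lyz2, -0.64) and summed to 3549 to 4071 CPM in DKO and 5398 to 5449.8 CPM in WT libraries. Medians were -0.55 for interstitial genes, 0.35 for committed genes and -0.58 for fibroblast genes, beside 0.0 for all genes, and the part of these cell types in the marker differences was not tested.

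Genes with the most similar profiles differed from marker to marker. Over the 24 preadipocyte libraries, log2(CPM + 0.5) of Thy1 correlated most with Mxra7 and Olfml2b (Pearson r = 0.99 for each), Zfp423 with Bcas3 (0.985) and Smoc1 (0.98), Pdgfrb with Csf1 (0.989), Icam1 with Psrc1 (0.982) and Pi16 with Il6st (0.955). Pdgfra correlated most with Lpar1 (0.962), while the nearest genes to Cd34 (Mst1r, 0.825) and Dlk1 (Mchr1, 0.822) were less alike, and Dpp4, under 1 CPM on average, was left out. Over the 24 MEF libraries the nearest genes were other ones: Smoc2 for Dpp4 (0.969), Ndn for Pi16 (0.958), Slc9a3r2 for Ly6a (0.955), Plcl1 for Cd34 (0.95), Nln for Zfp423 (0.937) and Osgep for Dlk1 (0.87). Over the 20 MEF libraries without those nearer to another day these r were 0.97, 0.964, 0.961, 0.951, 0.941 and 0.898, and the nearest gene became C1qtnf7 for Dpp4 (0.983), Adamts5 for Ly6a (0.982), Zfp354c for Cd34 (0.96) and C1qtnf12 for Zfp423 (0.954). These libraries share days, genotypes and cultures, so the correlations describe the course and carry no test.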

How the data were processed

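RNA was measured in 48 libraries, 24 per cell type. The authors sequenced strand-specific paired-end reads of 50 bases; the labels name polyA RNA and the paper's methods a total RNA kit. Per the submitters' processing notes, Cutadapt 1.18, STAR 2.7.0f and RSEM 1.3.0 were used (bcl2fastq 2.17 before them), with mm10. The deposited expected counts, 1 table per cell type, carry no normalization. RSEM divides reads shared by similar genes, which leaves Ly6a, of the Ly6 family, uncertain. Its counts were not whole numbers in 45.8% of libraries. Those of Pdgfra were not whole in 29.2%, of Thy1 in 27.1%, of Dlk1 in 25.0% and of each other member in at most 6.25%. Antisense genes that overlap members had at most 8 counts.

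Counts were rounded and analysed in R 4.3.3 with edgeR 4.0.16 (filterByExpr, TMM, robust quasi-likelihood, Benjamini-Hochberg over all genes tested). DKO was compared with WT in the 6 libraries of a day, days in the 12 libraries of a genotype, differences between days in the 24 libraries of a cell type, and cell types in the 6 libraries of day 0. EdgeR is the tool given in the methods; limma-voom with quantile normalization appears in the reporting summary. Alternatives were DESeq2 1.42.0, library size scaling, no filter on low counts, limma 3.58.1 voom, no fold change threshold, 1 fit over all days, the replicate block and leaving out libraries; leaving out the 4 MEF libraries, fits of only the groups compared and the block within 2 days were chosen after seeing the data. The members and lists were chosen with earlier results of these data known. Named genes of the lists are at most 2 per direction with the smallest adjusted p among those called, and the 2 most correlated genes were computed for each member with a mean of at least 1 CPM. The edgeR fit was tested on simulated data for DKO against WT in preadipocytes at day 6 and in MEFs at day 12. It was so tested as well for DKO preadipocytes at day 9 against day 0 and for the day 6 interaction of preadipocytes. Of the alternatives, only DESeq2 and limma-voom were tested in this way, each for part of these comparisons. Intervals and the floor of 3 counts cover counting error only.

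Pairing was checked by correlating the deviations of same-numbered libraries from their group means: no DKO and WT pair of groups had all 3 correlations over 0.1, while DKO preadipocytes of days 0 and 3 had, as had preadipocytes of days 6 and 9 in WT (0.526, 0.331 and 0.178) and in DKO cells (0.555, 0.498 and 0.435), days that were not compared with each other.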

Additional observations from a re-analysis of the deposited data

Results flagged for a closer look

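In iWAT preadipocytes the DKO effect on Pi16 differed between day 6 and day 0 by -3.63 ± 0.85 on the log2 scale (adjusted p = 0.0235, edgeR interaction test). Pi16 itself was called by edgeR neither at day 0 (1.97, adjusted p = 0.497) nor at day 6 (-1.69, adjusted p = 0.0524). The DKO effect on Thy1 differed by -1.02 ± 0.28 (adjusted p = 0.0431, same interaction test). Of 16 alternatives, Pi16 kept its interaction call in 11 and Thy1 in 6. Before induction, every DKO library of Pi16 lay above every WT library in preadipocytes (log2 fold change 1.97 ± 0.60, edgeR adjusted p = 0.497). In MEFs every DKO library lay below every WT library (-0.85 ± 0.59, edgeR adjusted p = 0.604). Neither was called by edgeR, and 14.5% of all genes in preadipocytes and 18.4% in MEFs did not overlap. The difference between cell types was not tested.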

How the results depend on the processing

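The gene values followed over the alternatives, 95 in all, were chosen in part for a low adjusted p. They took in all values of DKO against WT in preadipocytes at days 6 and 9 and in MEFs at day 12. DKO against WT at the other days was not followed. Of 1186 alternatives of these values, 1047 kept direction and side of the threshold, and 73 lost and 63 gained a call. A further 3 changed sign, all of Dlk1 in preadipocytes at day 9. Its log2 fold change ranged from -0.20 to 0.57 as libraries were left out. Markers called, DKO against WT, changed as follows. With DESeq2 they numbered 1 in preadipocytes at days 0 and 3 and in MEFs at day 0, and 6 in preadipocytes at day 6; library size scaling and limma-voom gave 6 there too. A fit over all days gave 1 in preadipocytes at day 3 and in MEFs at day 0 and 0 in MEFs at day 12, where 7 were called with no fold change threshold and 4 by DESeq2 and limma-voom (Cd34 added). Leaving out libraries gave 1 to 7 in preadipocytes at day 6, 0 to 6 at day 9 and 0 to 3 in MEFs at day 0. For DKO preadipocytes at day 3 against day 0, no filter gave 3 and leaving out libraries 2 to 5. For the DKO effect between days, leaving out libraries gave 0 to 2 (preadipocytes, day 6), 0 to 1 (day 9 and MEF day 8) and 0 to 3 (MEF day 12), DESeq2 1 for preadipocyte day 9 and MEF day 12, and only the 4 groups compared 2 for MEF day 12. Between cell types in DKO cells DESeq2 gave 5. The highest counts came without DKO replicate 2 (preadipocytes, day 9, and its interaction) and without DKO day 0 replicate 1 (MEF day 0 and both MEF interactions). The cause of these changes was not tested.

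The replicate block gave 4 called markers in preadipocytes at day 6, ending the call of Thy1 and adding Pdgfra and Cd34, 1 at day 3 (Zfp423), 3 in the day 6 interaction (Ly6a added), 1 in the day 9 interaction of preadipocytes (Pi16) and 1 between cell types in DKO cells (Thy1); of the pairs of groups compared, the numbers pair only DKO preadipocytes of days 0 and 3. Dpp4 and Pi16, at a few counts in several libraries, are the least precise values, and a difference in Dpp4 smaller than its counting interval was not detectable at this depth.

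Counts over all genes moved more. For DKO against WT by edgeR and by DESeq2 they were 33 and 145 in preadipocytes at day 0, 51 and 408 at day 3, 183 and 827 at day 9, and in MEFs 16 and 166 at day 0, 14 and 91 at day 4 and 9 and 97 at day 8. With 1 fit over all days they were 90, 396 and 519 in preadipocytes at days 0, 3 and 9, 134, 57 and 60 in MEFs at days 0, 4 and 8 and 209 (against 1222) at day 12, and with the replicate block 8, 278 and 58 and 3, 5 and 2. With no filter they were 65, 154 and 429 and 44, 33 and 25; library size scaling gave 327 in preadipocytes at day 9 and limma-voom 14 in MEFs at day 8. With no fold change threshold they were 3172 (against 1699) in preadipocytes at day 6, 310 at day 9 and 5062 in MEFs at day 12, and against day 0, 6818 and 7042 (against 3991 and 4362) in WT and DKO preadipocytes at day 3 and 8793 and 7256 (against 5434 and 4300) in WT MEFs at days 4 and 12. Leaving out WT replicate 3 in preadipocytes at day 6 gave 720, DKO replicate 2 at day 9 gave 1460 and DKO replicate 1 in MEFs at day 0 gave 529. The interactions gave 1606 (against 848), 648 (against 120), 22 (against 0) and 143 (against 6) with DESeq2 for preadipocyte days 6 and 9 and MEF days 8 and 12, and with only the 4 groups compared 9 for preadipocyte day 9 and 384 for MEF day 12; for preadipocyte day 9 library size scaling gave 52 and the block 188, and for MEF day 12 the block gave 1.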
